A study of Mus musculus with 6 samples.

Results

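The transcripts described here are 33 genes of the unfolded protein response and the integrated stress response, chosen by gene name from the 55401 genes measured in mouse hearts. All 33 names were found. They were taken in 3 groups by role, with 5 stress sensors and transcription factors, 20 genes of protein folding, transport and degradation in the endoplasmic reticulum (ER) that answer to ATF6 and XBP1, and 8 genes of the ATF4 branch. The hearts came from C57BL/6 mice aged 6 to 8 weeks, 3 mice given angiotensin II (Ang II) and 3 control mice, with 1 poly(A) RNA library for each heart. Ang II is a peptide hormone that constricts vessels and raises blood pressure, and it is given to mice to produce hypertensive heart disease. The labels name no genotype, transgene or vehicle, and give neither the dose nor the duration of Ang II. They name corynoline, the compound of the series title, for none of these animals. The comparison asks whether Ang II changed the transcripts with which the heart meets unfolded protein and other stress on translation.

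The ER folds the proteins that a cell secretes or inserts into its membranes. When unfolded protein accumulates, the sensor IRE1α (gene Ern1) splices the mRNA of XBP1, the sensor ATF6 is cleaved to release a transcription factor, and the kinase PERK (gene Eif2ak3) phosphorylates the initiation factor eIF2α. The first and second of these arms raise chaperones and degradation genes, while phosphorylated eIF2α slows translation as a whole and favours translation of ATF4, which raises genes of amino acid supply and, under lasting stress, of cell death. Splicing, cleavage, phosphorylation and translation were not measured, so the values below are total transcript levels. In whole hearts, fewer cells of a type and less RNA per cell cannot be told apart.

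The libraries held 51202916 to 63564869 estimated counts. Mitochondrially encoded genes took 47.6%, 37.3% and 41.3% of the counts in control replicates 1, 2 and 3. In Ang II replicates 1, 2 and 3 they took 37.4%, 36.4% and 35.8%. The part of this difference in the results below was not tested. The protocol text speaks of an adipose RNA, but heart muscle markers were abundant, with 8 genes summing to 12500 to 15300 FPKM in Ang II and 9280 to 14300 FPKM in control libraries, and 8 of 8 reached 0.5 FPKM in any library. Fat cell markers summed to 194 to 211 FPKM in Ang II and 157 to 176 FPKM in control libraries, where 3 of 8 reached 0.5 FPKM in any library and Lep stayed under 0.01 FPKM. Of the 6 fat cell markers tested, 2 had a log2 change (Ang II over control) above 0, with a median of -1.59. The higher sum in Ang II libraries is thus not a rise of most fat cell markers. Fabp4, on this list, was also listed as an endothelial marker. Ang II replicate 1 stood apart, with a mean Spearman correlation of 0.928 with the other 5 libraries, against 0.961 to 0.962 for each of those. Fibroblast markers, 8 genes from a cell type with much secretion, summed to 60.1 FPKM in Ang II replicate 1 and 127 to 128 FPKM in Ang II replicates 2 and 3, against 93.6 to 136 FPKM in control libraries. Macrophage markers, also 8 genes, summed to 136 FPKM in Ang II replicate 1 and 70.1 to 83.4 FPKM in replicates 2 and 3, against 65.3 to 97.9 FPKM in control libraries. B and plasma cell markers, 5 of 8 of which reached an FPKM of 0.5 in any library, summed to 6.76 to 12.3 FPKM in Ang II and 9.56 to 11.5 FPKM in control libraries. Red blood cell markers summed to 603 to 639 FPKM in Ang II and 1130 to 2010 FPKM in control libraries. Of 8 markers each, 8 heart muscle, 2 fibroblast, 2 endothelial, 2 macrophage, 3 smooth muscle and 3 B and plasma cell markers had a log2 change above 0. The medians were 0.26, -0.25, -0.36, -0.13, -0.08 and -0.29 in that order. Of 5 T cell markers tested 3 were above 0 (median 0.34), and of 7 red blood cell markers 0 (median -1.62). The part of these cell types in the results below was not tested. Across genes, the deviation of Ang II replicate 1 from the other libraries had a Spearman correlation of -0.21 with transcript length, against -0.00 to 0.19 in the other 5. With the GC share of transcripts the correlation was 0.15, against -0.13 to 0.06 in the other 5. Results are therefore given with and without that library.

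The promoters were searched for the elements through which the branches are known to act, since the members were grouped by branch. Of the 27 members with a promoter found, 10 held a match. Derl2, with more than 1 promoter, was counted once. RefSeq promoters (build GRCm38.p6) were found for 27 of the 33 members, and the 250 bases before each start were searched on both strands. The ER stress response element, ERSE, was searched as CCAAT and CCACG with 9 bases between them, where ATF6 binds together with the factor NF-Y. It stood in 6 of 16 folding and degradation promoters (37.5%), in 0 of 4 promoters of sensors and factors and in 0 of 7 ATF4-type promoters, and in 0.13% of the promoters of 27025 genes. The 6 matches follow, written 5′ to 3′ on the strand that carries the motif, with its fixed letters in capitals.
Calr: CCAATgagggtcgaCCACG
Canx: CCAATcaccacgctCCACG
Creld2: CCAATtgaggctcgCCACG
Derl3: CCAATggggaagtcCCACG
Pdia6: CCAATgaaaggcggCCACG
Syvn1: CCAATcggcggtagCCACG
The element bound by ATF4 with a C/EBP partner, CARE, was searched as TGATGNAA. It stood in 3 of 7 ATF4-type promoters (42.9%), in 1 of 16 folding and degradation promoters and in 3.91% of all promoters. These matches follow in the same form.
Asns: TGATGaAA
Chac1: TGATGcAA
Nupr1: TGATGcAA
Herpud1: TGATGcAA
ERSE-II, searched as ATTGG and CCACG with 1 base between them, was present in the Herpud1 promoter alone among the members and in 0.037% of all promoters. The XBP1-type element UPRE, searched as TGACGTGG, stood in 0 member promoters searched and in 0.603% of all promoters. ERSE, ERSE-II and UPRE hold related CCACG or CGTGG letters but are counted apart, and matches within a member promoter did not overlap. A match is a run of letters and does not show binding. An absence holds only for these exact letters in the 250 bases searched. Since the members were chosen as genes of these branches, the higher shares of ERSE and CARE among them are not a test of the grouping.

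As examples 4 promoters are printed, 2 with ERSE (Calr, Creld2), 1 with both ERSE-II and CARE (Herpud1) and 1 with CARE (Chac1). They are Calr (chr8:84846932-84847181, minus strand), Creld2 (chr15:88819396-88819645, plus strand), Herpud1 (chr8:94386179-94386428, plus strand) and Chac1 (chr2:119350992-119351241, plus strand). Each runs 5′ to 3′ toward the gene, with whole matches in capitals, their unfixed letters included. In Calr and Creld2 ERSE lies on the opposite strand and therefore begins with CGTGG. In Herpud1 and Chac1 CARE lies on the opposite strand and reads as TTGCATCA.
Calr: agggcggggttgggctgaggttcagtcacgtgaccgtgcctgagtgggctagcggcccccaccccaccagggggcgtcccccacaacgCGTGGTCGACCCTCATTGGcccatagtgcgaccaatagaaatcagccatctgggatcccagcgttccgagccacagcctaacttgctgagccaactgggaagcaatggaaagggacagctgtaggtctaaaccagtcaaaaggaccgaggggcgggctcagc
Creld2: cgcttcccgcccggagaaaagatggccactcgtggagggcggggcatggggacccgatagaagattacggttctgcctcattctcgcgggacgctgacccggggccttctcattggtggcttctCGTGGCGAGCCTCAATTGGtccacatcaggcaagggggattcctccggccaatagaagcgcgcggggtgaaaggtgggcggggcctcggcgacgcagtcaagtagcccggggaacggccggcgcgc
Herpud1: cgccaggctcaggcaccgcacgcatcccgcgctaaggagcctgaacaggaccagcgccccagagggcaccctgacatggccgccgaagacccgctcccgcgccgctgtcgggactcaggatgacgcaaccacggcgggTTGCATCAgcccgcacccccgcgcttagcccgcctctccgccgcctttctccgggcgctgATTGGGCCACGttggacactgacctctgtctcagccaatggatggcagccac
Chac1: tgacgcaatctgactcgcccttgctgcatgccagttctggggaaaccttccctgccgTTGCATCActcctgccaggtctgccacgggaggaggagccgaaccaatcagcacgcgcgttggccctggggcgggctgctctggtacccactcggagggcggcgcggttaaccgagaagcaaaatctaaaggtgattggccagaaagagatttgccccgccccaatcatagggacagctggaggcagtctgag
In Calr the element spans bases 162 to 144 before the start, in Creld2 bases 126 to 108 and in Chac1 bases 193 to 186. In Herpud1, CARE spans bases 112 to 105 and ERSE-II bases 52 to 42.

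**Figure D1:**
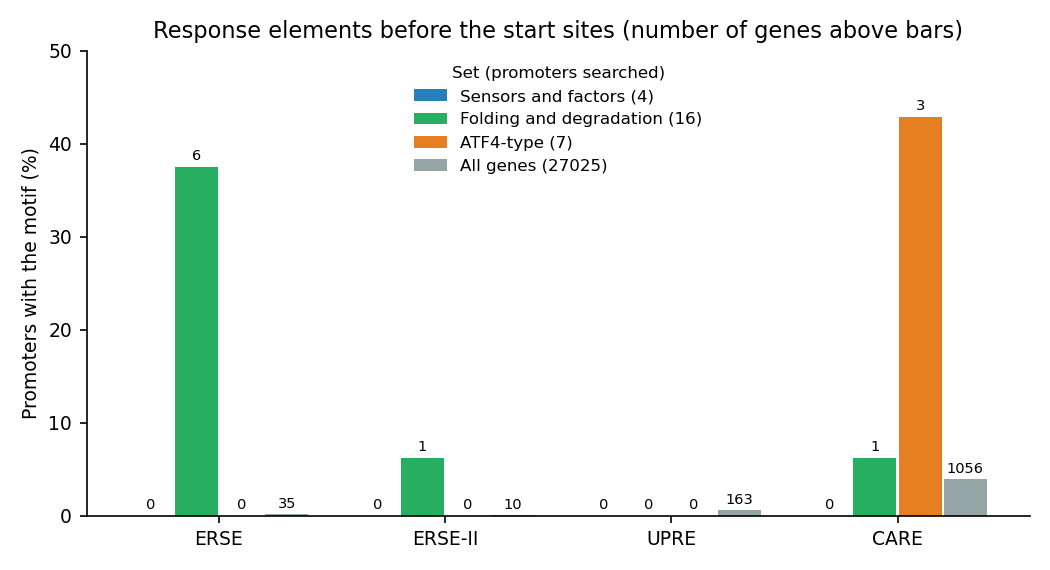
Share of promoters (y axis, percent) that hold each response element (x axis) in the 250 bases before the start, for the 3 groups of members and for all genes, with the number of genes above each bar. ERSE was found in 6 folding and degradation promoters and CARE in 3 ATF4-type promoters.

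With Ang II, no member passed the threshold, which was an adjusted p under 0.05 by edgeR (quasi-likelihood test, adjusted over 16759 genes after Benjamini and Hochberg). Of the 33 members 32 had enough counts to be tested. Adjusted p-values of members were at least 0.627, and 6 of all genes tested (0.0358%) passed. DESeq2 called 0 of the same 32 and 276 of all genes (1.65%), and limma on log2(FPKM + 0.5) called 0 members and 4 of 12095 genes (0.0331%). In edgeR 2 members had an unadjusted p under 0.05, Chac1, which was higher, and Pdia6, which was lower, against 7.51% of all genes (3.57% higher and 3.94% lower). Normalised read counts scaled to library size (CPM) are used for levels within a gene, and FPKM, which also divides by transcript length, for levels between genes. The CPM of the groups did not overlap for 2 members that were higher and 6 that were lower in Ang II hearts, against 7.97% and 9.21% of all genes, 17.2% in all.

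The folding and degradation members had a median log2 change of 0.04, with 11 of 19 above 0 and 8 below. The ATF4-type members also had a median of 0.04, with 4 of 8 above 0, and the sensors and factors a median of -0.16, with 2 of 5 above 0. Without Ang II replicate 1, 6 of 19 folding and degradation members (median -0.06), 2 of 8 ATF4-type members (median -0.04) and 3 of 5 sensors and factors (median 0.02) were above 0. Over all genes tested the median was 0.01, with 50.9% above 0. The folding and degradation members had a median within-group SD of 0.25 on the log2 scale, against 0.37 for all genes tested. That SD was 0.31 for the ATF4-type members and 0.33 for the sensors and factors. By length-corrected level, Calr led with a mean of 54 FPKM over the 6 libraries, followed by P4hb at 44.4, Herpud1 at 31.5 and Atf4 at 28.5 FPKM. The sensors were scarce, with Eif2ak3 at 0.707 and Ern1 at 0.611 FPKM, and Derl3 was lowest at 0.0146 FPKM.

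**Figure D2:**
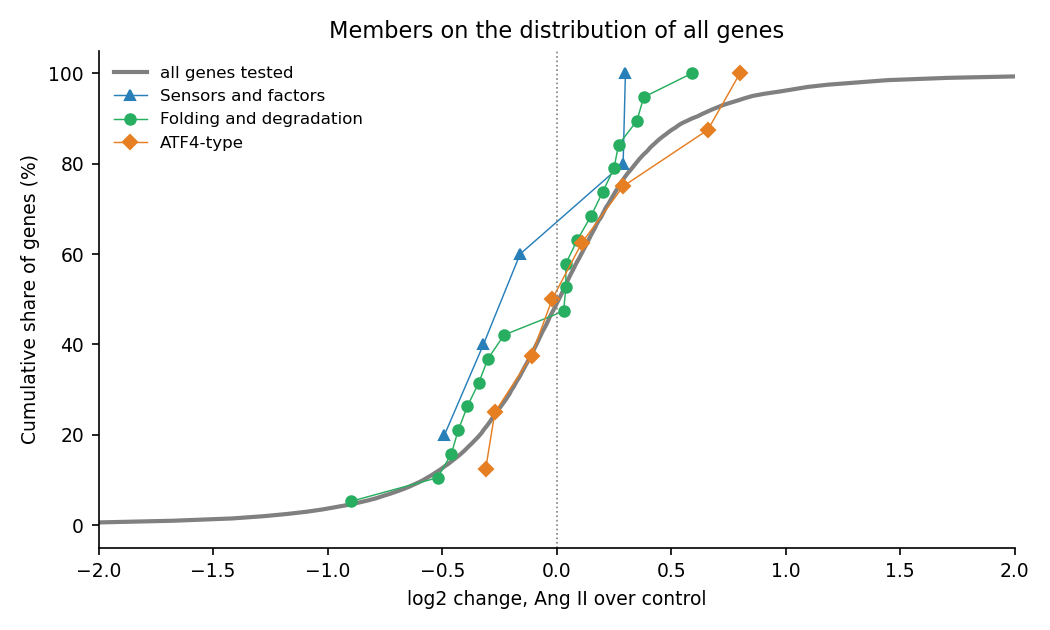
Cumulative share of genes (y axis, percent) against the log2 change, Ang II over control (x axis), for all 16759 genes tested (grey line) and for the members of each group (points, 1 per gene). The members lay between -0.90 (Hyou1) and 0.80 (Chac1), and the 19 folding and degradation members had no value between -0.23 and 0.03.

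Among the sensors and factors, Atf4 was the 1 gene whose hearts separated by treatment. Atf4, the factor at the centre of the integrated stress response (ENSMUSG00000042406, GRCm38 chromosome 15, 80255184 to 80257541, plus strand), had 85, 80.1 and 74.6 CPM in Ang II replicates 1, 2 and 3, against 64.1, 64.3 and 68.2 CPM in control replicates 1, 2 and 3. All 3 Ang II hearts lay above all 3 control hearts. The log2 change was 0.29 (SE 0.13, 95% confidence interval -0.02 to 0.60), which did not pass over all genes (edgeR adjusted p = 0.680). It lay between 0.24 and 0.33 when each library was left out in turn, and was 0.09 with quantile-normalized FPKM.

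Atf6, the membrane-bound sensor and factor (chromosome 1, 170704674 to 170867771, minus strand), had 34.4, 49.0 and 45.1 CPM in the Ang II hearts and 33.5, 38.2 and 32.9 CPM in the control hearts. Ang II replicates 2 and 3 were the highest of the 6, while replicate 1 lay among the controls. Its log2 change was 0.30 (SE 0.18, edgeR adjusted p = 0.737). With that library left out it was 0.43 (SE 0.11), with an unadjusted edgeR p of 0.00709 and an adjusted p of 0.155.

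Xbp1, the transcript that IRE1α splices (chromosome 11, 5520659 to 5525893, plus strand), had 6.00, 6.59 and 10.7 CPM in Ang II hearts, against 11.0, 9.66 and 12.1 CPM in control hearts. Ang II replicates 1 and 2 were below every control, and replicate 3 lay within the control range. The log2 change was -0.49 (SE 0.25, 95% confidence interval -1.09 to 0.11, edgeR adjusted p = 0.705). It was -0.79 without Ang II replicate 3 (edgeR adjusted p = 0.736), and between -0.57 and -0.34 without any other library. The counts cover spliced and unspliced Xbp1 together. Ern1, the gene of the splicing enzyme itself (chromosome 11, 106394650 to 106487852, minus strand), had 3.06, 5.75 and 5.26 CPM in Ang II hearts and 4.75, 6.31 and 6.58 CPM in control hearts, with a log2 change of -0.32 (SE 0.28, edgeR adjusted p = 0.807), which was -0.10 without Ang II replicate 1 and -0.50 without Ang II replicate 2. Eif2ak3, which encodes PERK (chromosome 6, 70844515 to 70905245, plus strand), had 3.08, 4.79 and 4.89 CPM in Ang II hearts and 3.79, 5.47 and 5.05 CPM in control hearts, with a log2 change of -0.16 (SE 0.26, edgeR adjusted p = 0.892). For both kinases Ang II replicate 1 was the lowest heart, and the other 2 Ang II hearts lay within the control range.

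**Figure D3:**
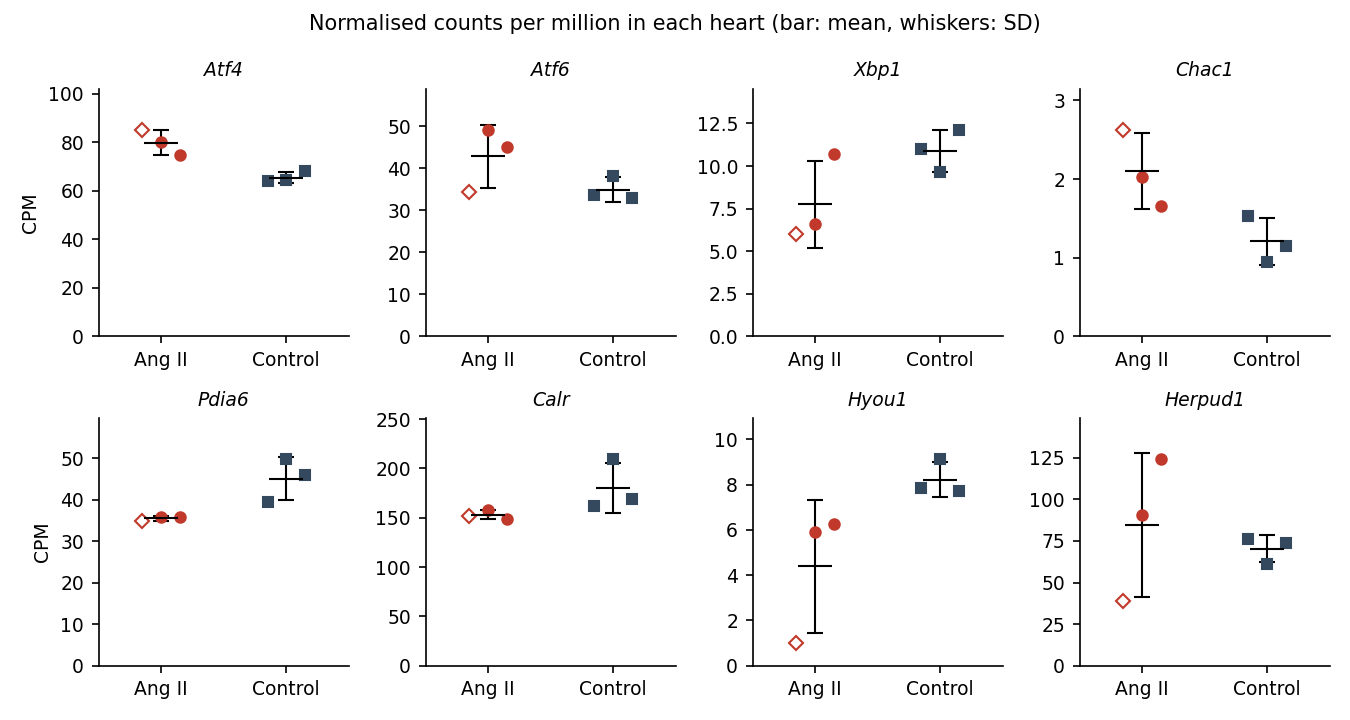
CPM (y axes, linear, from 0) of 8 members in each Ang II heart (red, replicate 1 as an open diamond) and each control heart (dark squares), with the mean as a bar and the SD as whiskers (n = 3 each). Atf4 and Chac1 were higher and Pdia6, Calr and Hyou1 lower in all 3 Ang II hearts than in any control, and Herpud1 ranged from 38.9 to 124 CPM among Ang II hearts.

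The folding and degradation members divided by role, a split made after their values were seen. Of 10 chaperones and folding enzymes, 8 had a log2 change below 0, with a median of -0.36, while the calnexin gene Canx and P4hb stood at 0.04 and 0.03. All 9 tested genes of the translocon, of ER-associated degradation and of the ER membrane were above 0, against 50.9% of all genes tested. Their median was 0.25. As the split followed the values, this count does not test an excess over all genes or a difference between the roles. The count above 0 was 7 of 8 with limma on log2(FPKM + 0.5) and 8 of 9 with the replicate number as a block. It was 6 of 8 with quantile-normalized FPKM and 6 of 9 with voom quality weights. Below 0 were 8 chaperones and enzymes under each other scaling of the counts tried, and 10 with quantile-normalized FPKM, with voom quality weights and without Ang II replicate 1. Without Ang II replicate 1, 6 of these 9 translocon, degradation and membrane genes were above 0, with a median of 0.01.

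Pdia6, a disulfide isomerase (ENSMUSG00000020571, chromosome 12, 17266545 to 17284770, plus strand), had 34.8, 35.8 and 35.9 CPM in Ang II hearts, against 39.5, 49.7 and 46.0 CPM in control hearts. The Ang II hearts were close together and below every control. The log2 change was -0.34 (SE 0.14, 95% confidence interval -0.68 to -0.01), and edgeR gave an unadjusted p of 0.0473 (adjusted p = 0.658). Without Ang II replicate 1 it was -0.33. Pdia3, the isomerase that serves glycoproteins with calreticulin and calnexin (chromosome 2, 121413775 to 121438687, plus strand), had 63.4, 68.6 and 69.0 CPM in Ang II hearts and 75.4, 92.0 and 80.0 CPM in control hearts. These groups did not overlap either (log2 change -0.30, SE 0.14, edgeR adjusted p = 0.692).

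Calr, which encodes the calcium-binding lectin calreticulin (chromosome 8, 84841850 to 84846934, minus strand), had 152, 158 and 149 CPM in Ang II hearts, against 162, 209 and 169 CPM in control hearts. All Ang II hearts were lower than all controls, and control replicate 2 was the highest heart. The log2 change was -0.23 (SE 0.16, edgeR adjusted p = 0.760). Canx, its membrane-bound relative, averaged 97.6 ± 8.14 CPM in Ang II and 94.9 ± 6.83 CPM in control hearts, and P4hb, the classical disulfide isomerase, 139 ± 15.1 CPM and 136 ± 3.01 CPM in the same order (SD, n = 3 each). The 95% confidence intervals of their log2 changes were -0.30 to 0.38 and -0.31 to 0.37. Pdia4 averaged 11.2 ± 1.69 CPM in Ang II and 14.6 ± 2.66 CPM in control hearts (log2 change -0.39, SE 0.20).

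Hyou1, an ER chaperone of the Hsp70 superfamily (chromosome 9, 44379490 to 44392369, plus strand), had 1.01, 5.90 and 6.27 CPM in Ang II hearts, against 7.84, 9.11 and 7.73 CPM in control hearts. Ang II replicate 1, with 44 counts, lay far below the rest, and replicates 2 and 3 were also below every control. The log2 change was -0.90 (SE 0.59, edgeR adjusted p = 0.757), and without Ang II replicate 1 it was -0.43 (SE 0.14, unadjusted p = 0.0211, adjusted p = 0.237 in edgeR). Sdf2l1, a partner of ER chaperones (chromosome 16, 17130138 to 17132383, minus strand), had 2.19, 1.76 and 1.7 CPM in Ang II hearts and 2.60, 2.60 and 2.40 CPM in control hearts, again without overlap (log2 change -0.43, SE 0.22, edgeR adjusted p = 0.699).

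Manf and Creld2, which encode small secreted ER stress proteins, showed another pattern, in which Ang II replicate 1 stood with the controls. They were chosen after their values were seen. Manf had 26.3, 11.1 and 12.0 CPM in Ang II hearts, against 20.2, 27 and 20.5 CPM in control hearts. Creld2 had 10.1, 6.74 and 7.17 CPM in Ang II hearts, against 10.1, 10.8 and 13.4 CPM in control hearts. In both, Ang II replicates 2 and 3 were below all controls. Their log2 changes were -0.46 (SE 0.36) and -0.52 (SE 0.22), and without Ang II replicate 1 they were -0.96 (SE 0.16, adjusted p = 0.0813) and -0.72 (SE 0.16, adjusted p = 0.134) in edgeR's test. Manf overlaps exons of Dcaf1 and an antisense gene on the other strand, and the strandedness of the libraries is not given in the sources used here. It also shares 14 exon bases with Rbm15b on its own strand. The Manf counts are therefore uncertain.

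Herpud1, which brings substrates to the ubiquitin ligase of ER-associated degradation, varied widely among the Ang II hearts. It had 38.9, 90.5 and 124 CPM in Ang II hearts, against 76.1, 60.9 and 74.0 CPM in control hearts. Ang II replicate 1 was the lowest of all hearts, and replicates 2 and 3 were the highest. Its log2 change was 0.27 (SE 0.39, edgeR adjusted p = 0.884), and without Ang II replicate 1 it was 0.61 (SE 0.17, unadjusted p = 0.0116, adjusted p = 0.188). The translocon subunit genes went the other way in that library. Sec61b had 9.82, 2.70 and 3.53 CPM in Ang II hearts, against 5.78, 4.77 and 5 CPM in control hearts, and Sec61a1 had 42.1, 23.0 and 21 CPM, against 25.3, 21 and 21 CPM. For Sec61b replicates 2 and 3 were below every control, and its log2 change was 0.04 with all libraries and -0.73 (SE 0.20) without Ang II replicate 1. Herpud1 and these 2 genes were chosen after their values were seen.

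The remaining degradation and membrane genes overlapped between the groups. Edem1, which pulls misfolded glycoproteins out of the folding cycle, reached 7.32 CPM in the second Ang II heart, while the other 5 hearts had 2.01 to 3.18 CPM (log2 change 0.59, SE 0.50). Sel1l, the partner of the ubiquitin ligase, varied more within each group than between the group means. It had 27, 9.94 and 23.3 CPM in Ang II hearts and 11.1, 12.2 and 27.3 CPM in control hearts. The ligase gene Syvn1 averaged 11.5 ± 1.81 CPM in Ang II and 10.8 ± 1.02 CPM in control hearts (SD, n = 3 each), and shares 91 exon bases with Mrpl49 on the other strand. The derlin genes of the ER membrane Derl1 and Derl2 had log2 changes of 0.15 (SE 0.16) and 0.38 (SE 0.21). Without Ang II replicate 1 these were 0.01 (SE 0.09) and 0.17 (SE 0.15). Derl2 shares 231 exon bases with Mis12 on the other strand. Derl3 had 0, 4 and 0 counts in Ang II and 0, 8 and 0 counts in control libraries and was not tested. Wfs1, the ER membrane protein wolframin, stood at 34.6, 45.6 and 47.0 CPM in Ang II hearts, against 34.8, 36.5 and 39.6 CPM in control hearts, and had a log2 change of 0.20 (SE 0.17), or 0.33 (SE 0.09) without Ang II replicate 1.

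**Figure D4:**
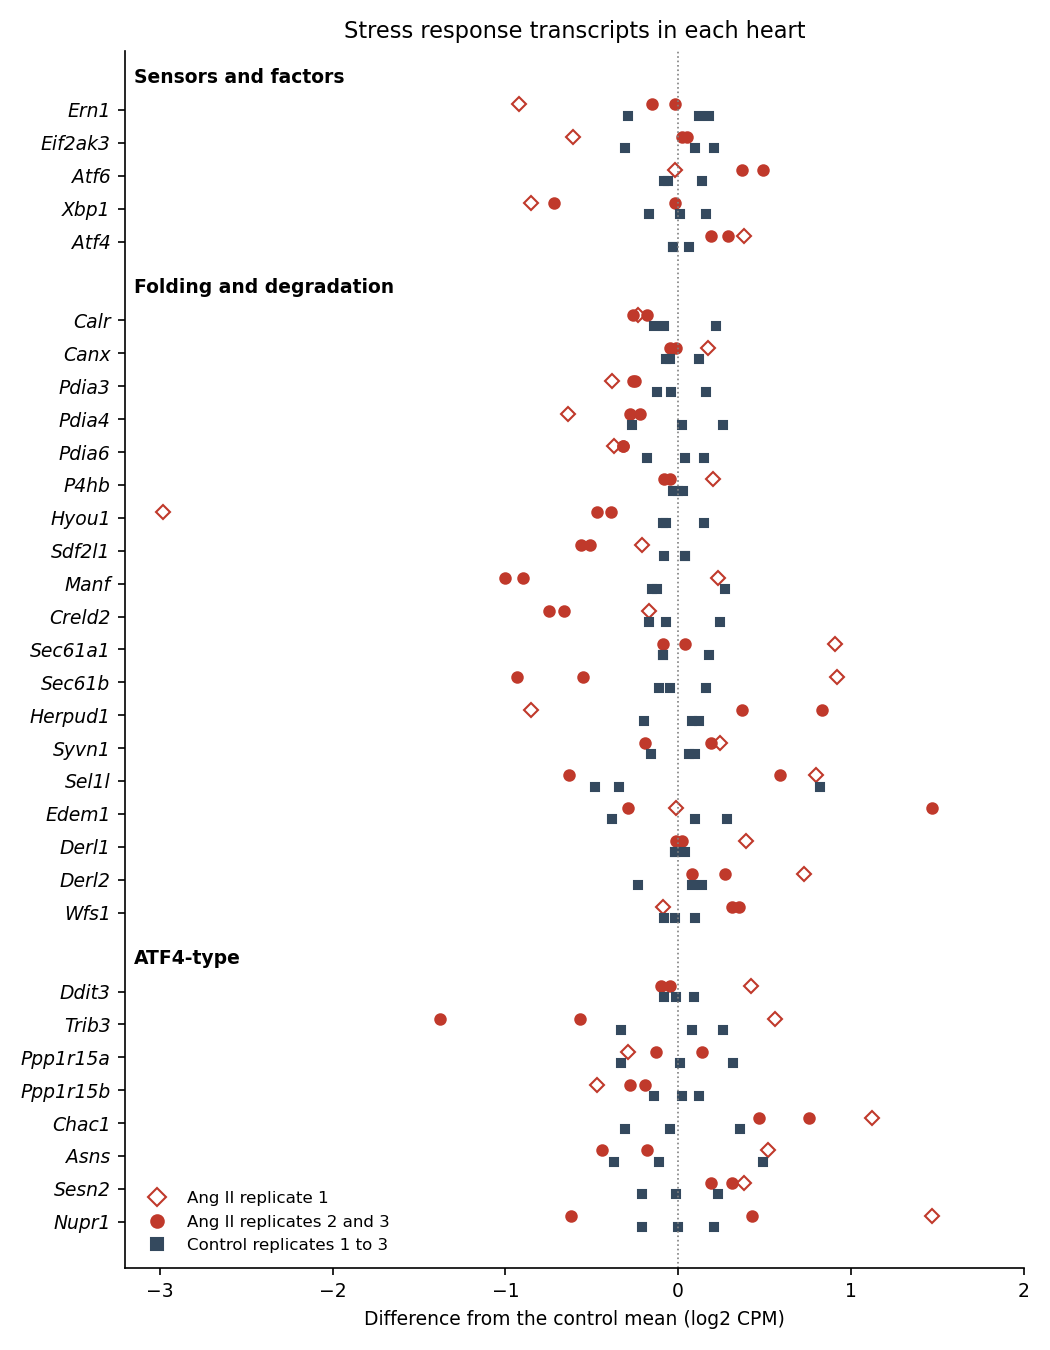
Difference of each heart from the control mean (x axis, log2 CPM) for the 32 members tested (rows), with Ang II hearts in red above (replicate 1 as an open diamond) and control hearts as dark squares below. Ang II replicate 1 lay at -2.98 for Hyou1 and 1.47 for Nupr1.

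In the ATF4 branch, Chac1 had the lowest p-value of the members. Chac1, an enzyme that degrades glutathione (ENSMUSG00000027313, chromosome 2, 119351229 to 119354381, plus strand), had 2.62, 2.03 and 1.66 CPM in Ang II hearts, against 1.53, 0.946 and 1.15 CPM in control hearts. These rest on 114, 143 and 118 counts in Ang II and 70, 63 and 63 counts in control libraries. All Ang II hearts were above all controls, and Chac1 was 1.74-fold higher (log2 change 0.80, SE 0.31, 95% confidence interval 0.07 to 1.53). Its unadjusted p was 0.0358 and its adjusted p 0.627 in edgeR's test, and without Ang II replicate 1 its log2 change was 0.62 (unadjusted p = 0.0855).

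Ddit3, which encodes the death-associated factor CHOP (ENSMUSG00000025408, chromosome 10, 127290774 to 127296288, plus strand), had 32.3, 22.5 and 23.2 CPM in Ang II hearts, against 23.9, 25.6 and 22.8 CPM in control hearts. Ang II replicate 1 was the highest heart, replicate 2 lay just under the controls and replicate 3 among them. The log2 change was 0.11 (SE 0.18, 95% confidence interval -0.33 to 0.54, edgeR adjusted p = 0.899). Ddit3 shares 68 exon bases with a methionyl-tRNA synthetase gene on the other strand. A second gene ID with the name Ddit3 (ENSMUSG00000116429) lies within the first and had 1 count in every library. Trib3, a pseudokinase induced by ATF4 and CHOP, had 6.07, 1.55 and 2.74 CPM in Ang II hearts, against 4.90, 3.24 and 4.33 CPM in control hearts. Its replicates 2 and 3 of the Ang II group were below every control, with a log2 change of -0.95 (SE 0.32) without replicate 1 and -0.27 (SE 0.49) with it.

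The eIF2α phosphatase has 2 alternative regulatory subunits. Ppp1r15b, the constitutive one (chromosome 1, 133131143 to 133139783, plus strand), had 11.8, 14.4 and 13.5 CPM in Ang II hearts, against 14.8, 16.6 and 17.8 CPM in control hearts. Every Ang II heart was below every control, with a log2 change of -0.31 (SE 0.15, edgeR adjusted p = 0.695). Ppp1r15a, the stress-induced one, averaged 22.8 ± 3.53 CPM in Ang II and 24.6 ± 5.51 CPM in control hearts (log2 change -0.11, SE 0.21). Asns, asparagine synthetase, averaged 2.39 ± 0.876 CPM in Ang II and 2.42 ± 0.784 CPM in control hearts (SD, n = 3 each). The sestrin gene Sesn2 averaged 2.45 ± 0.170 CPM in Ang II and 2.00 ± 0.312 CPM in control hearts, and its groups overlapped. Nupr1, a small stress-induced nuclear protein, stood at 16.7, 8.08 and 3.89 CPM in Ang II hearts, against 6.92, 5.98 and 5.18 CPM in control hearts. Its log2 change of 0.66 (SE 0.49) became -0.01 without Ang II replicate 1.

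Ang II replicate 1 took a large part in these values. Of the 32 members tested 14 were highest and 10 lowest in that heart, or 43.8% and 31.2%, against 30.9% and 31.8% of all genes tested. Of the 8 ATF4-type members 6 were highest there, and their median deviation from the control mean was 0.47 on the log2 scale in that heart, against 0.02 and -0.16 in Ang II replicates 2 and 3. Without it, 0 members passed edgeR's adjusted threshold, which 129 of 17661 genes (0.73%) did, and the smallest adjusted p of a member was 0.0813 (Manf). Then 11 members had an unadjusted p under 0.05, 4 that were higher (Atf4, Atf6, Herpud1 and Wfs1) and 7 that were lower (Pdia6, Hyou1, Sdf2l1, Manf, Creld2, Sec61b and Trib3), against 15.4% of all genes in both directions.

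**Figure D5:**
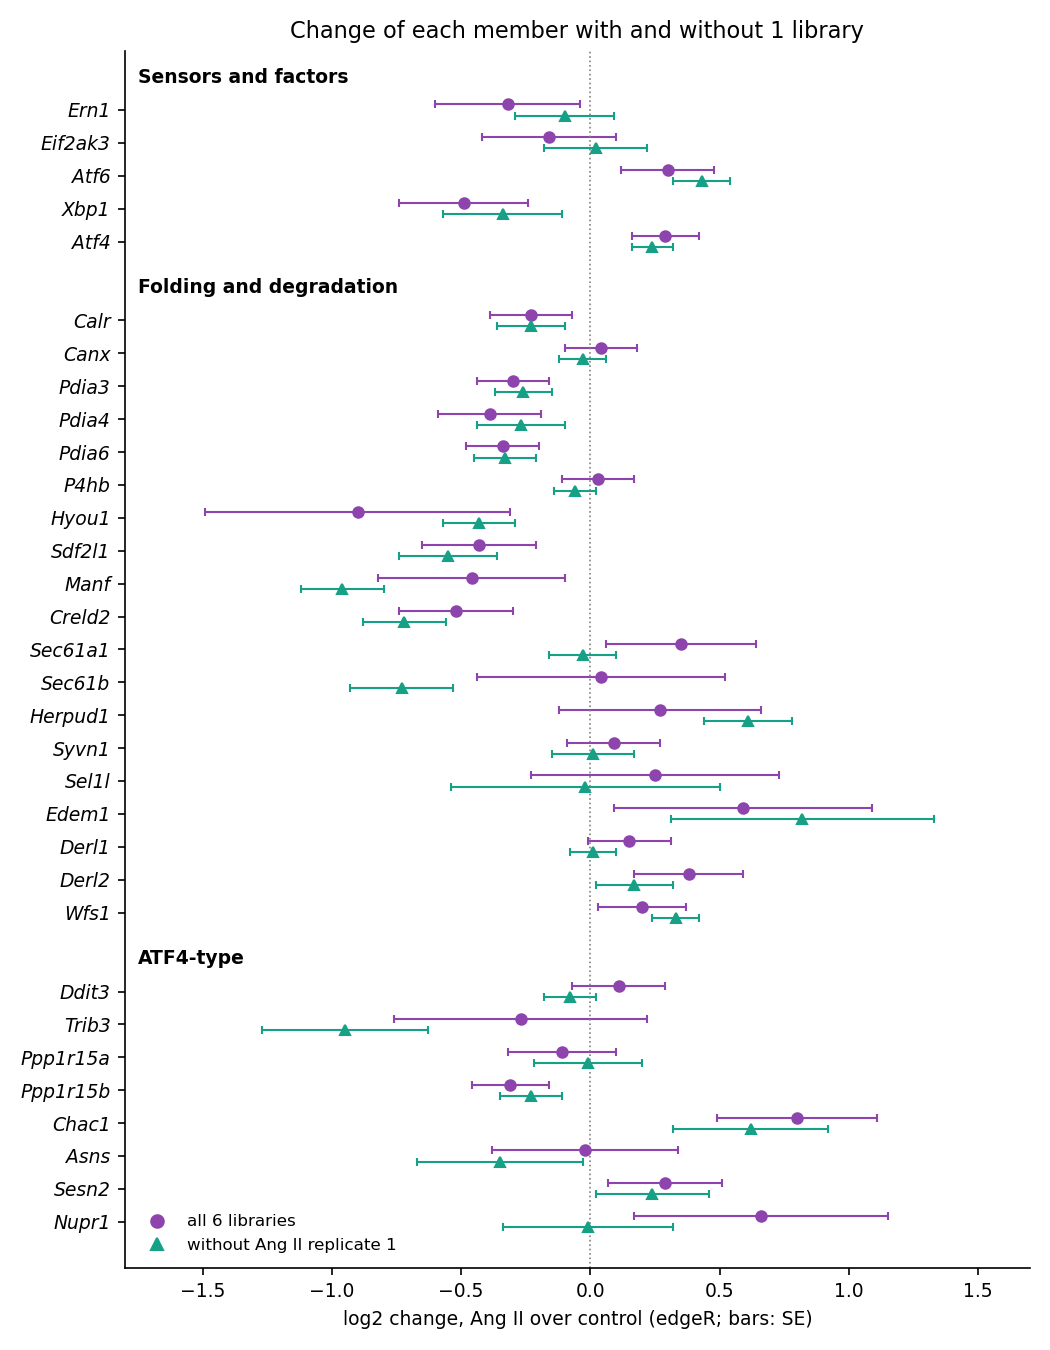
log2 change of each tested member (x axis, Ang II over control, edgeR) with its SE as bars, from all 6 libraries (circles) and without Ang II replicate 1 (triangles). Sec61b moved from 0.04 with all libraries to -0.73, Nupr1 stood at 0.66 and -0.01, and Atf4 at 0.29 and 0.24.

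Other genes of the same pathways gave 0 calls in edgeR's test as well. Of 46 other ER folding, transport and degradation genes, 19 had log2 changes above 0 and 27 below, with a median of -0.07, and an unadjusted p under 0.05 was reached by 1 that was higher and by 1 that was lower, against 7.51% of all genes. Without Ang II replicate 1 it was reached by 4 that were higher and 3 that were lower, against 15.4% of all genes. The chaperone BiP, encoded by Hspa5 and a standard readout of the response, had 6.67, 89.5 and 153 CPM in Ang II hearts, against 59.9, 267 and 194 CPM in control hearts. Its hearts differed more within each group than the groups did, with a log2 change of -1.06 (SE 1.00, edgeR adjusted p = 0.820), or -0.52 without Ang II replicate 1. Hsp90b1, the ER Hsp90, had 68.8, 123 and 118 CPM in Ang II hearts, against 132, 188 and 136 CPM in control hearts, without overlap (log2 change -0.55, SE 0.27, edgeR adjusted p = 0.695, or -0.33 without Ang II replicate 1). The genes with the smallest p were Creb3l1, an ER-anchored factor (2.70 ± 0.397 CPM in Ang II and 4.08 ± 0.201 CPM in control hearts), Ube2j1, a ubiquitin-conjugating enzyme of the ER (27.6 ± 4.17 and 20.9 ± 1.28 CPM in the same order), the isomerase gene Pdia5 (log2 change -0.54, SE 0.24) and Stt3b of the oligosaccharyl transferase (log2 change 0.40, SE 0.18). Their adjusted p-values in edgeR's test were at least 0.575.

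Of 45 other integrated stress response genes 43 were tested, with 25 above 0 and 18 below and a median of 0.11. By edgeR 0 passed, and 6 had an unadjusted p under 0.05, 4 of them higher, against 7.51% of all genes. Without Ang II replicate 1, 12 had an unadjusted p under 0.05, 10 of them higher, against 15.4% of all genes, and 0 passed. With all libraries DESeq2 called 2 higher, Atf3 and Eif4ebp1. Atf3, a repressor induced by ATF4 and by many other signals, had 63.3, 137 and 131 CPM in Ang II hearts, against 2.82, 18.7 and 11.7 CPM in control hearts (log2 change 3.31, SE 0.69, edgeR adjusted p = 0.343). Eif4ebp1, an ATF4 target that restrains cap-dependent translation, had 98.5, 56.4 and 60.9 CPM in Ang II hearts, against 36.1, 29.4 and 36.7 CPM in control hearts (log2 change 1.08, SE 0.25, edgeR adjusted p = 0.395). For both, every Ang II heart was above every control. The next smallest p-values belonged to the arginine transporter gene Slc7a1 (11.2 ± 0.673 CPM in Ang II and 18.2 ± 6.02 CPM in control hearts) and to Cars, cysteinyl-tRNA synthetase (18.1 ± 0.656 and 14.4 ± 0.166 CPM in the same order, SD, n = 3 each).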

How the data were processed

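Poly(A) RNA libraries of 6 hearts, 3 Ang II and 3 control, were grouped by the sample labels. The authors deposited, per the file headers, an FPKM value and an estimated count for every gene and library. The tools, per the submitters' processing notes, were Bowtie 0.12.2, HISAT2 2.0 and StringTie 1.3.0, with no role given. The notes name build mm8. Positions in the table equalled those of GRCm38 (GENCODE M21) for 94.2% of the genes found in both, and for 31 of 33 members, with Manf and Derl2 differing at 1 end. The estimated count values are whole numbers and were tested as deposited.

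Counts were tested with edgeR 4.0.16 in R 4.3.3 (quasi-likelihood, two-sided, trimmed mean of M-values, filterByExpr), leaving 16759 genes, and p-values were adjusted over all of them by Benjamini-Hochberg. CPM used the scaled library sizes. The SE is the log2 change divided by the root of edgeR's F statistic, and 95% confidence intervals used 6.76 degrees of freedom. DESeq2 1.42.0 and limma 3.58.1 on log2(FPKM + 0.5) were alternatives, with other scalings, filters and pseudocounts, the replicate number as a block and each library left out. The edgeR step was tested on simulated data. Libraries of a group differed by more than counting error, with a chi-square per degree of freedom from 34 to 479. Nothing states more than that each library is 1 heart. The p-values therefore set the difference between groups against the spread between these hearts, which edgeR moderates across genes.

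The members, their groups and the lists were chosen with earlier results of these data known. Values in every library are given for the sensors and factors, Ddit3, and members with an unadjusted p under 0.05 or no overlap between groups. The other members given in every library (Manf, Creld2, Herpud1, Sec61a1, Sec61b, Sel1l, Wfs1, Trib3 and Nupr1) were chosen after their values were seen. Of the other pathway genes, the 4 with the smallest p in each list are named, with Hspa5, Hsp90b1 and Atf3, and with Sars, which was chosen after its values were seen. Positions are those of the deposited table. Plots were made in Python 3.11.15 (matplotlib 3.10.9).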

Additional observations from a re-analysis of the deposited data

How the results depend on the processing

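The direction of the log2 change held in all 19 alternatives for 18 of 32 members, among them Atf4, Atf6, Xbp1, Chac1, Calr, Pdia3, Pdia4, Pdia6, Hyou1, Sdf2l1, Manf and Creld2. No member passed the threshold in any alternative except Manf, with sample quality weights in voom (log2 change -0.87, adjusted p = 0.0478), which made 1 member call against 0. Genes called over the whole table numbered 6, and 0 with library totals and no scaling factor, 276 with DESeq2, 12 with every gene of at least 1 count, 348 with voom weights, 3 with limma at a pseudocount of 0.1 and 3 at 1, and 2 with limma and no filter. When each library was left out in turn they ranged from 0 to 129. The 129 were without Ang II replicate 1, and 0 passed without Ang II replicate 3 or without control replicate 1, 2 or 3. The cause of these differences was not tested.

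The median of the folding and degradation members, 0.04, was -0.21 with quantile normalization and -0.08 with voom weights, and ranged from -0.06 to 0.07 over left-out libraries. That of the ATF4-type members, 0.04, was -0.02 with quantile normalization and -0.13 with voom weights, and ranged from -0.04 to 0.19 over left-out libraries. Of the 32 members 14 changed sign in any alternative. With voom weights Eif2ak3 stood at 0.00, Canx at -0.01, P4hb at -0.05, Sec61a1 at -0.01, Sec61b at -0.61, Syvn1 at -0.08, Ddit3 at -0.04 and Nupr1 at -0.22. With quantile normalization Canx stood at -0.11, P4hb at -0.23, Sec61b at -0.19, Herpud1 at -0.03, Ddit3 at -0.06 and Asns at 0.03. With limma on FPKM, Sec61b stood at -0.10 (pseudocount 0.5, with or without the filter), -0.13 (0.1) and -0.08 (1), and Asns at 0.01, 0.02 and 0.01. Asns was 0.00 with upper-quartile scaling and 0.04 with library totals. Over left-out libraries the ranges were -0.30 to 0.02 for Eif2ak3, -0.03 to 0.10 for Canx, -0.06 to 0.08 for P4hb, -0.03 to 0.54 for Sec61a1, -0.73 to 0.36 for Sec61b, -0.12 to 0.61 for Herpud1, -0.02 to 0.78 for Sel1l, -0.18 to 0.90 for Edem1, -0.08 to 0.20 for Ddit3, -0.95 to 0.08 for Trib3, -0.26 to 0.07 for Ppp1r15a, -0.35 to 0.26 for Asns and -0.01 to 1.04 for Nupr1.

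The replicate numbers were not taken as pairs. Deviations of same-numbered hearts correlated at 0.08, 0.11 and -0.04, so that 1 of 3 was over 0.1. Hearts numbered 1 and 2 each correlated best with their own number in the other group, and those numbered 3 did not. A fit that kept the replicate block called 0 genes and put Sec61b at -0.19. With 3 hearts a group, some 95% confidence intervals were wide. That of Trib3 (-1.43 to 0.89) did not exclude a fall of 1 on the log2 scale. That of Nupr1 (-0.50 to 1.82) did not exclude a rise of 1.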

Other observations

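Among the other integrated stress response genes, aminoacyl-tRNA synthetases, which charge tRNAs and include known ATF4 targets, were grouped after their values were seen. Of 11 tested, 8 had a log2 change above 0, with a median of 0.24 and a range from -0.22 to 0.36, and 1 reached an unadjusted p under 0.05 in edgeR's test, against 7.51% of all genes. Without Ang II replicate 1, 8 were above 0, with a median of 0.24. Sars, seryl-tRNA synthetase, was chosen after its values were seen. It had 64.9, 56.0 and 51.6 CPM in Ang II hearts, against 47.7, 44.1 and 45.5 CPM in control hearts (log2 change 0.33, SE 0.14, edgeR adjusted p = 0.670). Of the 11 synthetase genes, 3 were below 0. Of the other ER genes, grouped in the same way, 4 of 7 translocon-associated and Sec genes were above 0, with a median of 0.13 (3 of 7 and -0.01 without Ang II replicate 1). Of 5 signal peptidase and oligosaccharyl transferase genes 1 was above 0, with a median of -0.09 (2 of 5 and -0.03 without Ang II replicate 1).

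Hspa5 and Hyou1 were both lowest in Ang II replicate 1, at 6.67 and 1.01 CPM. Also lowest there were 45.7% of the other ER folding, transport and degradation genes, a list that includes Hspa5. The share was 31.6% for the folding and degradation members, which include Hyou1, and 31.8% for all genes tested. Control replicate 1 had the lowest Hspa5 of the controls, at 59.9 CPM, whereas its Hyou1, at 7.84 CPM, lay between the other controls.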
